A study of Drosophila melanogaster with 12 samples.

Results

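DNA transposons were examined as a class in ChIP-seq data for histone H3 and for H3 acetylated at lysine 23 (H3K23ac) from Drosophila melanogaster ovaries. A DNA transposon is here an element of the deposited transposon table whose class, the third field of its name, is DNA. There were 31 such elements among the 215 in the table, and 29 of them had a mean of at least 10 counts over the 8 H3 and H3K23ac libraries and were tested, as were 203 elements in all. By the superfamily in the second name field, 10 of the 29 were Tc1, 7 Transib, 5 P, 2 Pogo, 2 MuDR and 1 each hAT, Mariner and PiggyBac. The members left out were both Tc1, namely Mariner_DMA with a mean count of 8.75 and UHU with 6.88.

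The study knocked down enok in the ovary and asked what became of H3K23ac at piRNA clusters and transposons. The control flies (GFP_KD) carried P{VALIUM20-EGFP.shRNA.1}attP2 and the enok knockdown flies (enok_KD) carried P{TRiP.HMS02634}attP2, and both groups also carried tj-GAL4/+ and the GAL4::VP16-nos.UTR driver of the MVD1 insertion at CG6325. The tj driver acts in somatic cells of the ovary and the nos driver in the germline. RNAi ran at 29 °C for 2 to 3 days, and ovaries pooled from adult females 2 to 3 days old went into each of the 2 replicates per antibody and knockdown. Because whole ovaries were used, a change in chromatin and a change in the mix of germline and somatic cells cannot be told apart. The tables hold no genes, so neither the loss of enok nor the makeup of the tissue could be checked here.

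DNA transposons move by cut and paste. A transposase recognises inverted repeats at the ends of the element, excises the DNA and inserts it elsewhere, without the RNA copy that LTR and LINE retrotransposons use. In fly ovaries the piRNA pathway silences transposons of every class, partly through their chromatin, and most H3K23ac depends on Enok, a histone acetyltransferase.

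The H3 libraries held 411139 to 628808 reads in the transposon table and the H3K23ac libraries 199303 to 370429. DNA transposons took 6.02% (95% Wilson interval 5.96 to 6.08) and 5.59% (5.53 to 5.64) of these reads in the GFP_KD H3 replicates, and 5.34% (5.27 to 5.41) and 6.55% (6.48 to 6.63) in the enok_KD H3 replicates. Their share of the H3K23ac reads was 10.6% (10.5 to 10.7) and 10.5% (10.4 to 10.7) in GFP_KD, and 11.3% (11.2 to 11.5) and 12.1% (12.0 to 12.3) in enok_KD. The share was thus higher in every H3K23ac library than in any H3 library, and the intervals cover counting error only. The replicates of enok_KD differed more than those of GFP_KD. The median absolute log2 difference between replicates over the 29 elements was 0.29 for H3 and 0.32 for H3K23ac in enok_KD, as compared with 0.13 and 0.092 in GFP_KD. Of the 29 elements, 23 were higher in replicate 2 of enok_KD H3, 22 in replicate 2 of enok_KD H3K23ac and 26 in replicate 1 of GFP_KD H3.

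In control ovaries, most DNA transposons carried more H3K23ac per H3 than the typical element. The fitted log2 ratio of H3K23ac to H3 in GFP_KD was above 0 at 29 of 29 elements, with a median of 0.84 and a range of 0.14 to 2.01. Over all 203 elements the median was 0.14, with 53.7% above 0 and 46.3% below. The ratio was significantly higher at 24 of the 29 and significantly lower at 0 (edgeR quasi-likelihood test, Benjamini-Hochberg adjusted p-value under 0.05). Over all elements tested, 36.0% were called higher and 32.5% lower. The H3K23ac libraries lay above the H3 libraries without overlap at 28 of the 29 and below them at 0, against 48.8% and 43.3% of all elements. The retrotransposons were divided in direction. Of 118 LTR elements 33 were called higher and 45 lower, with a median of −0.13, and of 41 LINE elements 9 were higher and 20 lower, with a median of −0.39. DNA transposons were not the only class with a high ratio, since the 9 elements of class Unknown had a median of 0.94. Only the lists were counted here, and no test was run between classes. These ratios are relative to the other elements of the table, and under every scaling that was tried the 29 ratios stayed above 0. With size factors taken from piRNA clusters, the median of all elements rose by 0.79 and the calls over all elements shifted from 73 higher and 66 lower to 128 higher and 26 lower. Without replicate 1 of GFP_KD the median of the 29 was 1.00 with 29 above 0, and without its replicate 2 it was 0.70 with 28 above 0. Over all elements the medians of these fits were 0.19 and 0.05. Each leaves 1 GFP_KD library per antibody, so the spread comes from enok_KD and calls are not given.

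**Figure D1:**
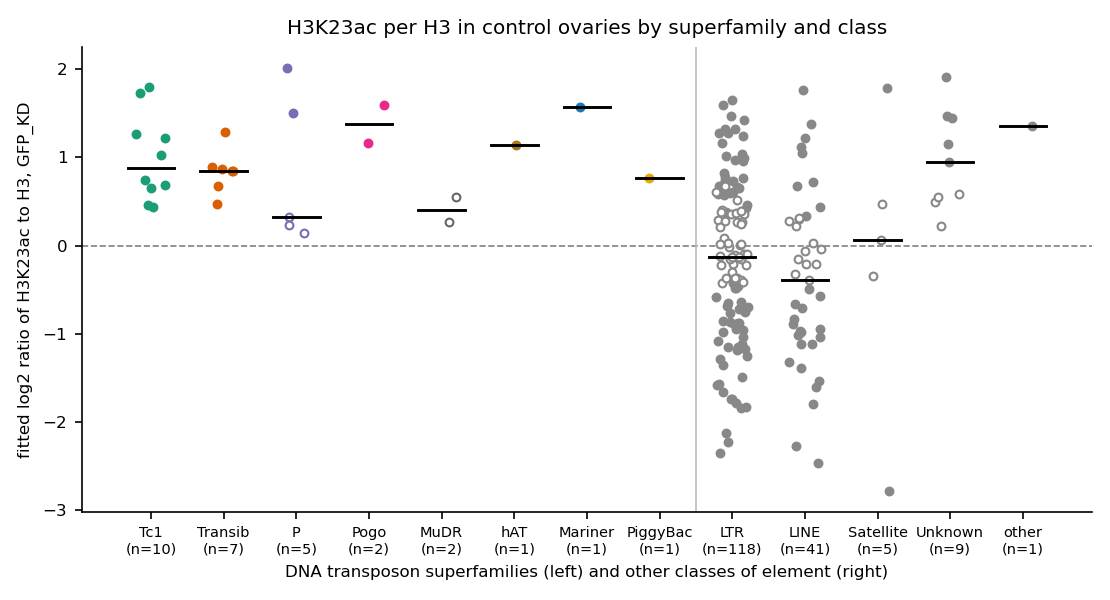
Fitted log2 ratio of H3K23ac to H3 in GFP_KD ovaries (vertical axis), with 1 point per transposon element, for the DNA transposon superfamilies (left) and the other classes (right). Filled points passed an adjusted p-value of 0.05 and bars are medians, and the 29 DNA transposons lie between 0.14 and 2.01, whereas LTR elements span −2.36 to 1.65.

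The Tc1 superfamily, whose members in animals include Bari and S elements, was called higher throughout. The ratio was called higher at 10 of the 10 Tc1 elements, with a median of 0.88, and the median of the other 19 DNA transposons was 0.84. The difference of 0.040 between these medians was 0.13 from replicate 1 alone and 0.026 from replicate 2 alone, an SD of 0.074, and was thus smaller than the spread between replicates. FB4_DM is a foldback element, named for its long inverted repeats, and had the most reads of any Tc1 entry. Its log2 ratios in the GFP_KD replicates were 1.63 and 1.83, and the fitted value was 1.73 ± 0.14 (SE, edgeR adjusted p = 9.4e-05). The Tc1 entry of Rehavkus-1_DY was close to it, with 1.68 and 1.89 in the replicates from a mean of only 34.8 counts. The remaining Tc1 elements lay below these, at TC1-2_DM (1.26), BARI1 (1.23), S_DM (1.02), MINOS (0.74), Mariner2_DM (0.69), BARI_DM (0.65), S2_DM (0.46) and TC1_DM (0.43). Without FB4_DM and Rehavkus-1_DY the Tc1 median was 0.71. The paired names within Tc1 differed from each other. S_DM had ratios of 0.94 and 1.11 and S2_DM had 0.56 and 0.35, and BARI1 had 0.99 and 1.46 while BARI_DM had 0.59 and 0.71, without overlap in either pair.

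The Transib superfamily is known for its transposase, which is related to the RAG1 recombinase of vertebrate immune cells. The ratio was called higher at 7 of 7 Transib elements, and 6 of them lay between 0.47 and 0.89, namely Transib5 (0.89), TRANSIB4 (0.87), TRANSIB2 (0.84), M4DM (0.84), TRANSIB1 (0.68) and TRANSIB3 (0.47). The exception on the high side was Transib-N1_DM, with log2 ratios of 1.18 and 1.41 in the GFP_KD replicates and a fitted value of 1.29 ± 0.18 (edgeR adjusted p = 0.000289). TRANSIB3 was the least firmly called, with ratios of 0.21 and 0.75 and an edgeR adjusted p of 0.047.

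The P superfamily fell into separate groups. The PROTOP family, known in flies as Hoppel and studied as a component of heterochromatin, had the lowest ratios among the 21 DNA transposons with a mean of at least 100 counts. PROTOP_A had log2 ratios of 0.09 and 0.19 in the GFP_KD replicates, PROTOP_B 0.17 and 0.29, and PROTOP 0.20 and 0.44. The fitted values were 0.14 ± 0.13, 0.23 ± 0.14 and 0.32 ± 0.16, and none of the 3 passed (edgeR adjusted p = 0.339, 0.162 and 0.105), with mean counts of 2227 to 3501. The other P entries had high ratios, at 1.50 ± 0.17 for P_DG (edgeR adjusted p = 0.000108) and 2.01 ± 0.40 for PLACW_DM (0.00158), whose replicates were 1.60 and 2.48 from a mean of 30.2 counts. The name PLACW_DM resembles that of a P-element vector. The flies carried the P{} transgenes given above, and whether reads of this entry came from them was not tested.

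Among the smaller superfamilies the ratio was called higher at 5 of 7 elements. POGON1, a short derivative of pogo, had log2 ratios of 1.54 and 1.63 (fitted 1.59 ± 0.17) and POGO itself had 1.07 and 1.27 (1.17 ± 0.12). HOBO, an hAT element that causes hybrid dysgenesis, had nearly equal values of 1.13 and 1.16 (1.15 ± 0.15). MARINA, the only Mariner entry, had 1.53 and 1.59 (1.57 ± 0.18), and the PiggyBac element LOOPER1_DM had 0.63 and 0.91 (0.77 ± 0.23). The MuDR elements were the 2 not called. NOF_FB, the companion of foldback, had 0.45 and 0.65 with an edgeR adjusted p of 0.0657, and the MuDR entry of Rehavkus-1_DY had −0.11 and 0.64 with 0.348. Entries that appear, from their names alone, to come from another species or a vector (MINOS, P_DG, PLACW_DM, MARINA and both entries of Rehavkus-1_DY) had a median of 1.54 over 6.

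**Figure D2:**
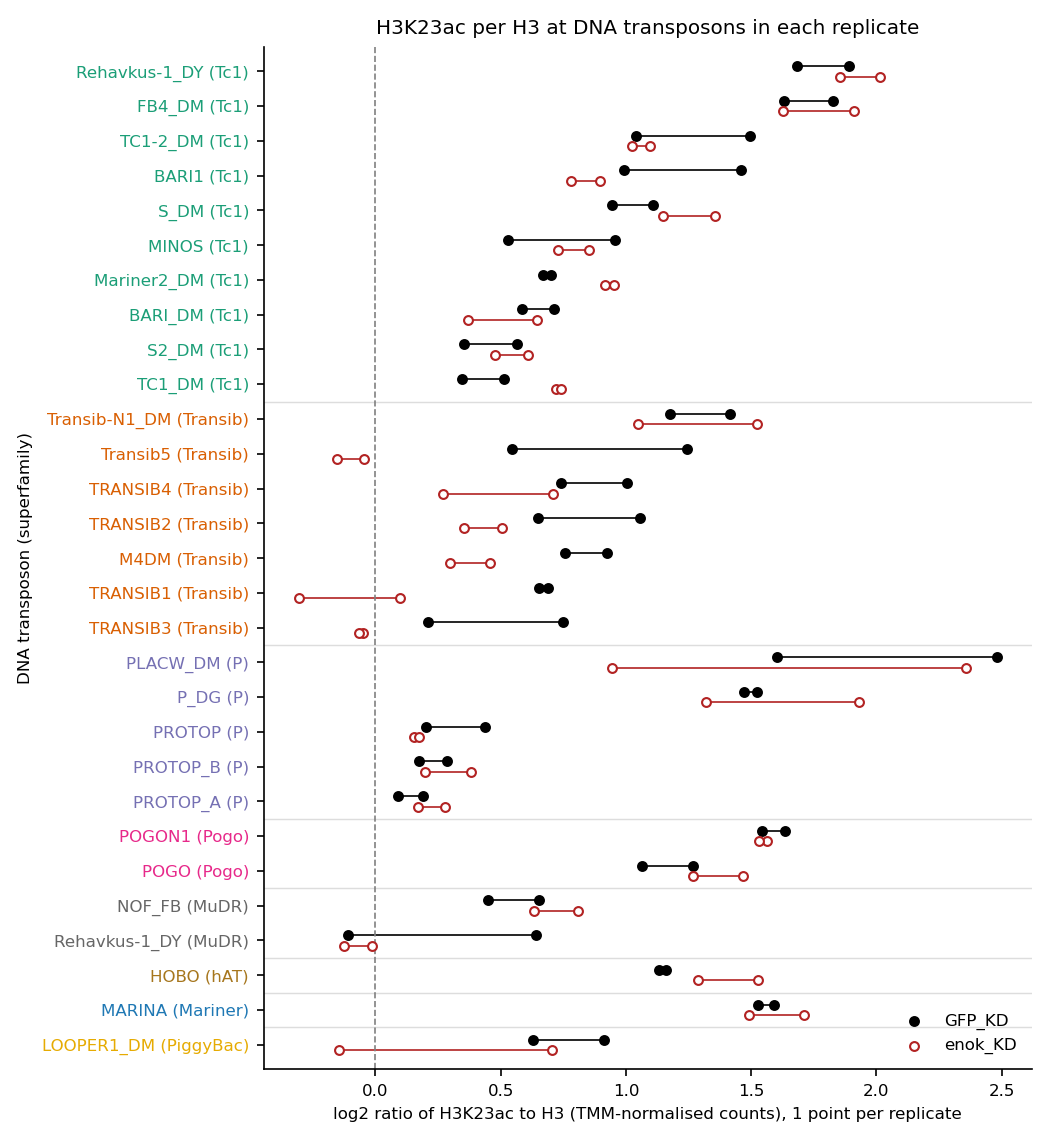
Log2 ratio of H3K23ac to H3 (horizontal axis) at each of the 29 DNA transposons, with 1 point per replicate for GFP_KD (filled) and enok_KD (open), grouped by superfamily. Each point divides libraries of the same replicate number, a pairing that the labels do not state. At 6 of the 7 Transib elements both enok_KD points lie below both GFP_KD points, whereas the PROTOP elements stay between 0.09 and 0.44 in both knockdowns.

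Upon enok knockdown, H3 at DNA transposons was mostly above the control, but no element passed the test. The log2 fold change of H3 (enok_KD over GFP_KD) was above 0 at 25 of 29 elements and below 0 at 4, with a median of 0.27, while 53.2% of all elements were above 0 and 46.8% below, with a median of 0.03. Other classes had higher medians, at 0.71 for the 5 Satellite elements (4 above 0) and 0.67 for the 9 of class Unknown (6 above 0). The LTR and LINE medians were −0.05 and −0.06. This direction depended on scaling, since under total counts, which moved the median of all elements by −0.21, the split was 18 above and 11 below with a median of 0.07. It depended more on single libraries. Without replicate 2 of enok_KD the split was 20 above and 9 below with a median of 0.05, and without its replicate 1 the median was 0.42. Without replicate 2 of GFP_KD the median was 0.13. At an adjusted p-value under 0.05, 0 of the 29 were called in edgeR, with a lowest value of 0.113, against 2.46% called higher and 0% called lower over all elements. DESeq2 called 1 of the 29 and limma-voom called 1. At an unadjusted p-value under 0.05, 7 were higher and 1 was lower, against 17.2% and 11.3% of all elements. The replicates did not overlap at 20 of the 29, 18 of them higher and 2 lower, against 37.4% and 28.6% of all elements. Without replicate 1 of enok_KD, 15 DNA transposons were called higher and 1 lower, and without its replicate 2 it was 3 and 1, against 61 higher and 53 lower of 205 elements and 40 higher and 46 lower of 204 in the same fits, with the remaining enok_KD library assumed to vary like those of the other groups.

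The superfamilies had different medians of the H3 change, which were not tested against each other. Transib had the highest median of the superfamilies with more than 2 elements, at 0.44, with 7 of 7 elements above 0 in the main scaling and in every alternative. The P elements had a median of 0.29, with 5 of 5 above 0, but 1 of the 5 was below 0 under total counts and 2 were without replicate 2 of enok_KD, where the median was 0.06. The Tc1 elements had a median of 0.14, with 7 of 10 above 0, and the median fell to −0.07 under total counts, with 6 of 10 below 0. Without replicate 2 of enok_KD the Transib median was 0.18 and that of Tc1 0.02. The Tc1 median minus that of the other DNA transposons was −0.15 (−0.016 and −0.26 from replicates 1 and 2, SD 0.17). The Transib median minus that of the others was 0.23 (0.11 and 0.41, SD 0.21). The Transib difference had the same sign in both replicates and was about as large as its SD. Replicate values of these differences, here and for the changes below, set enok_KD against the GFP_KD library of the same number. The labels do not state this pairing, so the values and their SDs depend on the numbering.

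Element by element, TRANSIB4 had the largest H3 change. Its normalised counts (reads per 1000000 reads of the transposon table, after TMM scaling) for H3 were 295 and 243 in the control and 402 and 497 upon knockdown, a change of 0.74 ± 0.24 on the log2 scale (edgeR adjusted p = 0.113). Transib5 followed, with 491 and 379 in the control and 546 and 752 upon knockdown, a change of 0.58 ± 0.22 (edgeR adjusted p = 0.133). For TRANSIB1 the H3 counts were 251 and 232 in the control and 318 and 403 upon knockdown, and the change was 0.58 ± 0.22 (edgeR adjusted p = 0.133). In each of these Transib elements both enok_KD libraries lay above both control libraries, and replicate 2 of enok_KD was the higher one. FB4_DM had H3 counts of 9896 and 8912 in the control and 11386 and 14154 upon knockdown, a change of 0.44 ± 0.14 (edgeR adjusted p = 0.119).

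BARI_DM, a Tc1 element of the Bari family, had the lowest value of the class in both H3 and H3K23ac. Normalised H3 counts for it were 2134 and 1904 in the control and 1379 and 1682 upon knockdown, and for H3K23ac they were 3205 and 3118 in the control and 2156 and 2171 upon knockdown. Both enok_KD libraries were below both control libraries for each antibody. The log2 fold change was −0.40 ± 0.14 for H3 (edgeR adjusted p = 0.133) and −0.55 ± 0.14 for H3K23ac (edgeR adjusted p = 0.165). DESeq2 called both lower, at −0.49 (adjusted p = 0.0323) and −0.60 (adjusted p = 0.0185). The change of the ratio of H3K23ac to H3 was −0.15 ± 0.20 (edgeR adjusted p = 0.697), within its error. BARI1, of the same family, had changes of 0.41 for H3 and 0.05 for H3K23ac, both above 0 and neither past the test.

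**Figure D3:**
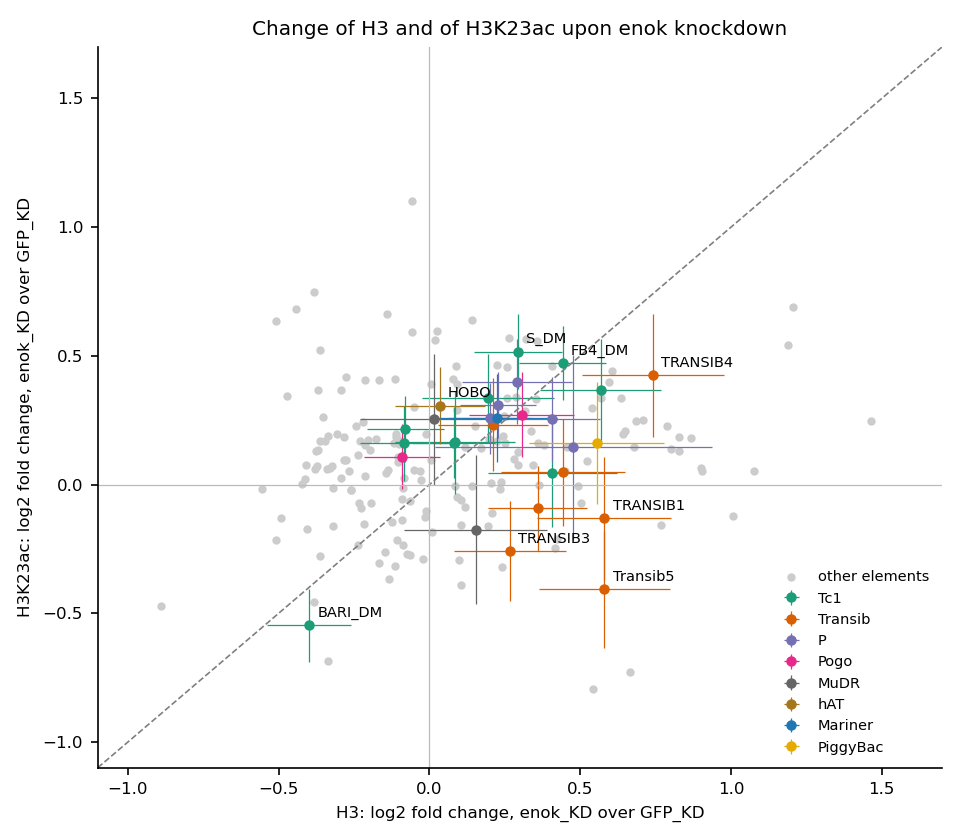
Log2 fold change of H3 (horizontal axis) and of H3K23ac (vertical axis) in enok_KD over GFP_KD, fitted value ± SE, for 29 DNA transposons coloured by superfamily and the other tested elements in grey, with the dashed line where both are equal. Of the 7 Transib elements 6 lie below the line, and BARI_DM sits apart at −0.40 and −0.55.

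The H3K23ac signal itself was not called changed in edgeR at any DNA transposon. As for H3, the values are relative to the other elements of the table. A change of the mark shared by all elements is removed by the scaling and could not be seen. The log2 fold change of H3K23ac was above 0 at 23 of 29 elements, with a median of 0.22, whereas 70.0% of all elements were above 0 and 30.0% below, with a median of 0.13. Under total counts, which moved the median of all elements by −0.16, the split was 18 above and 11 below. Without replicate 2 of enok_KD it was 16 above and 13 below, with a median of 0.08 for DNA transposons and 0.11 for all elements. In edgeR 0 of the 29 passed, with a lowest adjusted p of 0.165, and over all elements 0% were called in either direction. DESeq2 called 1 of the 29 and limma-voom 0. At an unadjusted p-value under 0.05, 4 were higher and 1 was lower, against 13.3% and 2.46% of all elements. Replicates did not overlap at 14 elements that were higher and 3 that were lower, against 31.0% and 13.8%. Leaving out replicate 1 of enok_KD gave 23 above 0 and 6 below, with a median of 0.25 for DNA transposons and 0.05 for all elements.

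Transib had the lowest median H3K23ac change of the superfamilies, and this order was not tested. Its median change was −0.09, with 3 elements above 0 and 4 below, while the other 22 DNA transposons had a median of 0.25 with 20 above 0. The difference of −0.35 between these medians was −0.48 from replicate 1 and −0.062 from replicate 2 (SD 0.30). The sign of the Transib median itself depended on the enok_KD replicate, at 0.13 without replicate 1 and −0.33 without replicate 2. The Tc1 median was 0.19, with 9 of 10 above 0, and its difference from the other DNA transposons was −0.043 (0.20 and −0.076 from replicates 1 and 2, SD 0.19), which did not hold a sign. The P median was 0.26, with 5 of 5 above 0, and under total counts 1 of the 5 was below 0.

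The highest H3K23ac values were at S_DM and FB4_DM, both Tc1. S_DM had H3K23ac counts of 7046 and 6945 in the control and 9640 and 10375 upon knockdown, a log2 fold change of 0.52 ± 0.15 (edgeR adjusted p = 0.165), beside H3 counts of 3666 and 3223 in the control and 3766 and 4677 upon knockdown. FB4_DM had H3K23ac counts of 30678 and 31604 in the control and 42776 and 43688 upon knockdown, a change of 0.47 ± 0.14 (edgeR adjusted p = 0.198). In both elements the enok_KD replicates lay above both control replicates, in H3 as in H3K23ac. The control replicates were close together in H3K23ac but less so in H3. In H3, replicate 1 of enok_KD exceeded the higher control of S_DM only slightly (3766 against 3666). TRANSIB4 had 494 and 488 in the control and 483 and 812 upon knockdown, a change of 0.42 ± 0.24 (edgeR adjusted p = 0.448) in which replicate 2 of enok_KD alone lay above the control. Transib5 had 716 and 898 in the control and 528 and 676 upon knockdown, a change of −0.41 ± 0.23 (edgeR adjusted p = 0.448). TRANSIB3 had 786 and 917 in the control and 628 and 784 upon knockdown, a change of −0.26 ± 0.19 (edgeR adjusted p = 0.584). For these last elements both enok_KD values lay below both control values, though for TRANSIB3 by very little. PROTOP_A, the P element with the most reads, had 8586 and 8435 in the control and 10340 and 10756 upon knockdown, a change of 0.31 ± 0.13 (edgeR adjusted p = 0.285), beside H3 counts of 8059 and 7388 in the control and 8521 and 9568 upon knockdown.

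**Figure D4:**
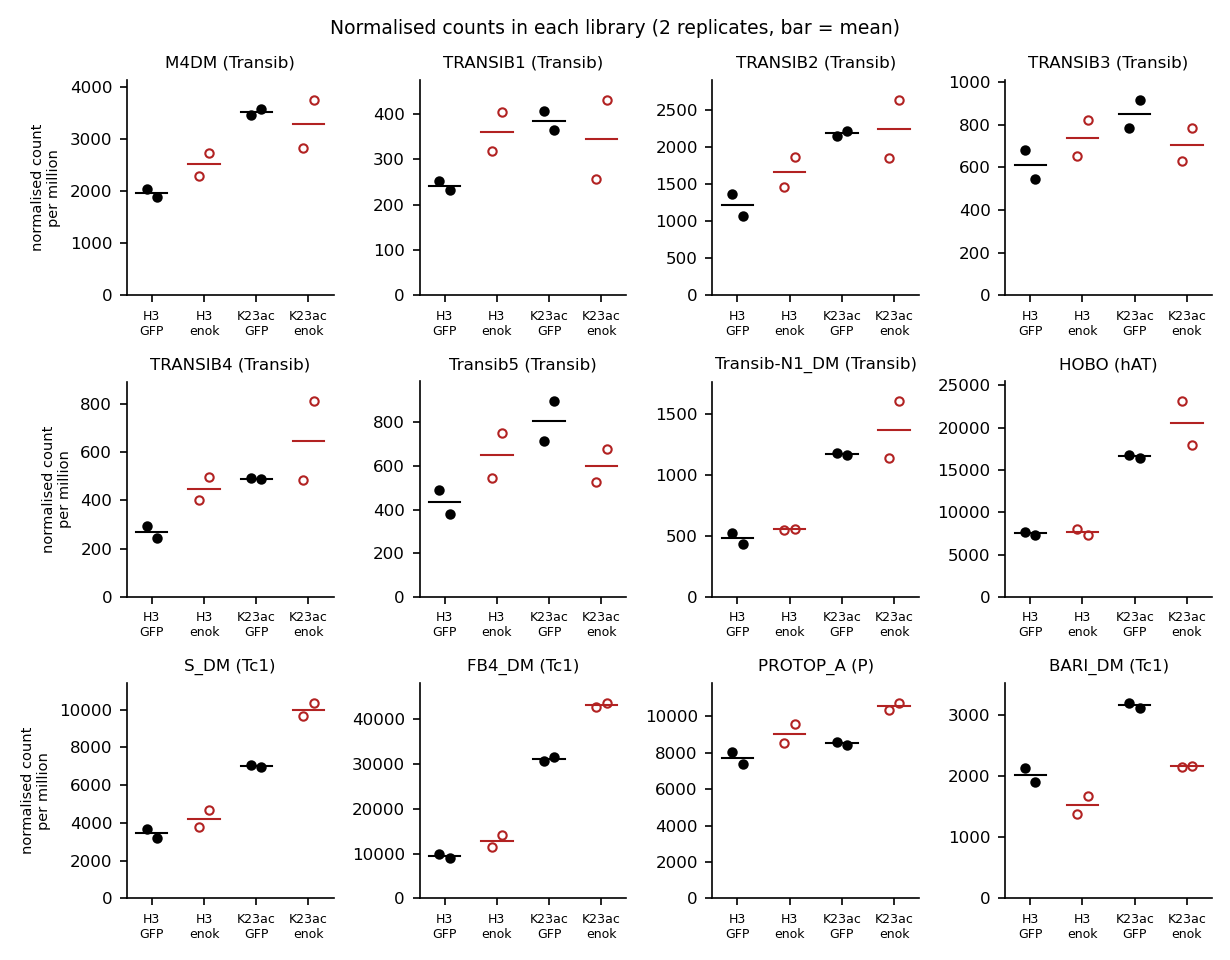
Normalised counts per 1000000 reads of the transposon table (vertical axes, each starting at 0) in the 2 replicates of each group for 12 DNA transposons, with bars at the means, GFP_KD in filled black and enok_KD in open red. For Transib5 the H3 counts go from 491 and 379 to 546 and 752 and the H3K23ac counts from 716 and 898 to 528 and 676, while for BARI_DM both antibodies are lower in enok_KD.

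The change in H3K23ac per H3 asks whether the mark changed beyond H3, relative to the other elements of the table. A loss or gain shared by all elements is removed by the scaling and cannot be seen in it. Over DNA transposons it was balanced, with 15 elements above 0 and 14 below and a median of 0.02, which became 11 and 18 and a median of −0.04 with size factors from the elements that are not DNA transposons. The median was also below 0 without replicate 1 of GFP_KD (−0.11) and without replicate 1 of enok_KD (−0.10). Over all elements 54.2% were above 0 and 45.8% below, with a median of 0.05. In edgeR 0 of the 29 passed, with a lowest adjusted p of 0.229, and over all elements 0% passed in either direction. DESeq2 and limma-voom also called 0 of the 29. At an unadjusted p-value under 0.05, 0 were higher and 1 was lower, against 9.36% and 4.93% of all elements. Ratios of the 2 knockdowns did not overlap at 4 elements that were higher and 8 that were lower, against 37.9% and 28.6%. Each ratio uses H3 and H3K23ac libraries of the same replicate number, a pairing that the labels do not state. Over all elements the deviations of same-numbered H3 and H3K23ac libraries correlated at −0.020 in GFP_KD. The counts of ratios without overlap therefore depend on the numbering.

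Transib accounted for 6 of these 8. Its median change was −0.45, with 6 of 7 elements below 0, while the median of the other 22 was 0.07 with 14 above 0. The same 6 were without overlap when paired by number, and overlap was not counted for the crossed pairing. The difference of −0.52 between these medians was −0.65 from replicate 1 and −0.45 from replicate 2 (SD 0.14). It was the largest Transib difference in relation to its SD, which again rests on pairing by number. A lower ratio was not particular to Transib. The median changes from replicates 1 and 2 were −0.46 and −0.55 for Transib and −0.96 and −0.93 for the 5 Satellite elements. They were −0.47 and −0.58 for the 9 elements of class Unknown, and above 0 for LTR and LINE. Under the alternative scalings and filters, tests and left-out libraries, 6 or 7 of the 7 Transib elements stayed below 0. The Transib median moved to −0.62 without replicate 1 of GFP_KD and to −0.28 without its replicate 2. It was −0.40 without replicate 1 of enok_KD and −0.48 without its replicate 2.

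Among Transib elements the ratio at Transib5 was 0.54 and 1.25 in the control and −0.04 and −0.15 upon knockdown, a change of −0.99 ± 0.31 (edgeR adjusted p = 0.229). TRANSIB1 had 0.69 and 0.65 in the control and −0.31 and 0.10 upon knockdown, a change of −0.71 ± 0.33 (edgeR adjusted p = 0.327). TRANSIB3 had 0.21 and 0.75 in the control and −0.05 and −0.07 upon knockdown, a change of −0.53 ± 0.27 (edgeR adjusted p = 0.371). With libraries paired by number, both values of enok_KD were below both control values at each of the 3 elements. Of these 6 knockdown values 5 were below 0. The same order held at M4DM, the Transib element with the most reads, where the ratio was 0.76 and 0.93 in the control and 0.30 and 0.46 upon knockdown (−0.45 ± 0.23). TRANSIB2 (−0.40 ± 0.29) and TRANSIB4 (−0.32 ± 0.34) followed. Transib-N1_DM was the exception, with 1.18 and 1.41 in the control and 1.05 and 1.52 upon knockdown (0.02 ± 0.26), so its ratios overlapped. Normalised counts behind these ratios varied between the enok_KD replicates. M4DM had H3 counts of 2038 and 1886 in the control and 2297 and 2733 upon knockdown, and H3K23ac counts of 3448 and 3580 against 2822 and 3753. TRANSIB1 had H3K23ac counts of 406 and 364 in the control and 256 and 431 upon knockdown, and TRANSIB3 had H3 counts of 680 and 546 against 651 and 821. Transib-N1_DM had H3 counts of 523 and 438 against 551 and 559, and H3K23ac counts of 1184 and 1166 against 1139 and 1607. In the 6 elements with a lower ratio, H3 was above the control by 0.27 to 0.74 on the log2 scale, while the H3K23ac change ranged from −0.41 to 0.42. The ratio change is the H3K23ac change minus the H3 change, so higher H3 is partly built into the choice of these 6.

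The Tc1 elements had a median ratio change of 0.08, with 7 of 10 above 0 (−0.02 without replicate 1 of GFP_KD, with 5 of 10), and the difference from the other DNA transposons was 0.23 (0.22 and 0.14 from replicates 1 and 2, SD 0.060). The other DNA transposons include Transib, and nothing was tested between the superfamilies. TC1_DM had the highest value, with ratios of 0.52 and 0.34 in the control and 0.72 and 0.74 upon knockdown (0.30 ± 0.18, edgeR adjusted p = 0.433), from H3 counts of 2863 and 2870 in the control and 2828 and 2597 upon knockdown and H3K23ac counts of 4092 and 3643 in the control and 4662 and 4335 upon knockdown. Mariner2_DM had 0.70 and 0.67 in the control and 0.95 and 0.92 upon knockdown (0.25 ± 0.21, edgeR adjusted p = 0.556), without overlap when libraries are paired by number. Its H3 counts were 1292 and 1293 in the control and 1320 and 1116 upon knockdown, and its H3K23ac counts 2101 and 2057 against 2550 and 2107. HOBO, the hAT element, had 1.13 and 1.16 in the control and 1.53 and 1.29 upon knockdown (0.27 ± 0.21, edgeR adjusted p = 0.531), from H3 counts of 7662 and 7346 against 8021 and 7346 and H3K23ac counts of 16777 and 16424 in the control and 23130 and 17956 upon knockdown. S_DM (0.22) was the fourth element whose ratios did not overlap on the higher side. None of these passed the test.

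None of the remaining elements passed the test either. In the P superfamily the median ratio change was 0.06 (−0.01 with those other size factors, −0.16 without replicate 1 of enok_KD and 0.22 without its replicate 2), with values of 0.08 for PROTOP_A, 0.06 for PROTOP_B and −0.15 for PROTOP, 0.11 for P_DG and −0.33 ± 0.58 for PLACW_DM. PROTOP_B had H3 counts of 5137 and 4573 in the control and 5095 and 6053 upon knockdown, and H3K23ac counts of 5790 and 5575 against 6640 and 6945. PROTOP had H3 counts of 4756 and 4379 against 5419 and 6681, and H3K23ac counts of 5467 and 5926 against 6034 and 7546. At both elements the enok_KD H3K23ac libraries lay above the control libraries. POGO was at 0.20, with H3 counts of 1356 and 1258 in the control and 1175 and 1279 upon knockdown, and H3K23ac counts of 2841 and 3027 against 3250 and 3077. POGON1 was at −0.03, with H3 counts of 250 and 252 against 274 and 346, and H3K23ac counts of 729 and 783 against 811 and 1003. In H3 the knockdowns overlapped at POGO and not at POGON1. MARINA was at 0.03, with H3 counts of 77.6 and 66.2 against 75.9 and 91.5, and H3K23ac counts of 225 and 200 against 250 and 259. NOF_FB was at 0.24, with H3 counts of 92.8 and 87.8 against 75.9 and 106, and H3K23ac counts of 127 and 138 against 117 and 187. LOOPER1_DM was at −0.39 ± 0.33, with H3 counts of 175 and 157 against 247 and 240, and H3K23ac counts of 271 and 295 against 222 and 392. Its H3 libraries did not overlap, whereas its enok_KD ratios of −0.14 and 0.71 were far apart. The MuDR entry of Rehavkus-1_DY was at −0.33. Within Tc1, TC1-2_DM (−0.20), MINOS (0.08), S2_DM (0.08), FB4_DM (0.03) and the Tc1 entry of Rehavkus-1_DY (0.14) overlapped between the knockdowns, and BARI1 (−0.36 ± 0.30) was the only Tc1 element whose ratios were lower without overlap.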

How the data were processed

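Members, lists and alternatives were chosen with earlier results of these data known. Bowtie2 (2.2.1) was used by the authors for alignment to dm3, without mismatches and with unique positions kept, and the authors deposited read counts per element (whole numbers, not normalized). The handling of duplicates and the repeat annotation are not given in the sources used here, and unique reads favour diverged copies. Input libraries (4) were not analysed here, so H3 is not divided by input. All per-library columns had a library (0 without). The piRNA cluster tables, also deposited as counts, gave alternative size factors. Their columns of the authors' comparison (DESeq2 mean, log2 fold change, p-values) were not used.

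Counts of 203 elements (mean of at least 10) were TMM-scaled (factors 0.903 to 1.10) and tested in edgeR 4.0.16 (R 4.3.3) with 4 group means, Benjamini-Hochberg over 203 and an adjusted p of 0.05. The checks used limma 3.58.1 and DESeq2 1.42.0. Log2 ratios used an offset of 0.5, and errors are SEs of the fit. Reads per element depend on copy number and length, so levels were not compared between elements. Every group has 2 libraries, and an exact two-sided test cannot go below 0.333. The edgeR p-values use a spread per element that is shared over the 4 groups and drawn toward that of other elements. They therefore do not measure the spread of the compared groups alone, and the test of the control ratio includes the enok_KD spread. The tests were checked on simulated counts with equal spread in all groups and independent libraries. That check does not cover the larger spread of the enok_KD libraries. Named elements were the one with the most reads in each superfamily, any that passed in a change, the 3 highest and 3 lowest of each contrast among those with a mean of at least 100, and BARI_DM, with each other member named at least once.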

Additional observations from a re-analysis of the deposited data

How the results depend on the processing

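Each group has 2 libraries, so single libraries decide several counts. DNA transposons called in H3K23ac per H3 in GFP_KD were 24 in the main analysis and 11 to 28 when each replicate was left out. The H3 change had 0 calls in the main analysis, 1 under total counts (BARI_DM, lower), 1 in DESeq2 (BARI_DM, lower), 1 in limma-voom (TRANSIB4, higher) and 0 to 16 with a replicate left out. The H3K23ac change had 0 calls, 1 in DESeq2 and 0 to 11 with a replicate left out, and the ratio change 0 calls and 0 to 9. Over all 203 elements the H3 calls were 5 higher and 0 lower in the main analysis and 6 and 42 under total counts. They were 14 and 12 in DESeq2 and 22 and 1 in limma-voom, and for H3K23ac 2 and 2 in DESeq2. With a replicate left out, control ratio calls over all elements fell or rose together with those of DNA transposons. For the changes, calls over all elements also rose when an enok_KD replicate was left out. These shifts were not particular to DNA transposons. The Tc1 differences ranged over left-out replicates from 0.026 to 0.13 for the control ratio, −0.28 to −0.036 for H3, −0.023 to 0.24 for H3K23ac and 0.12 to 0.26 for the ratio change. A fit with the replicate number as a block gave 5 calls in the ratio change, each of them lower and each Transib (M4DM, TRANSIB1, TRANSIB2, TRANSIB3 and Transib5), against 36 higher and 29 lower of 203 elements, 0 in the H3 change and 0 in the H3K23ac change. Over all 203 elements, the deviations of same-numbered H3 and H3K23ac libraries from their group means correlated at −0.020 in GFP_KD and 0.70 in enok_KD. Those of GFP_KD and enok_KD correlated at −0.49 for H3 and 0.14 for H3K23ac. Over the 29 DNA transposons the same correlations were 0.003, 0.31, −0.36 and 0.29. Same-numbered libraries thus deviated together in enok_KD, less so at DNA transposons, but not in GFP_KD. The number was not taken as a pairing. With the H3 numbers crossed, chosen after seeing the data, 3 DNA transposons were called, with 24 higher and 3 lower over all elements. An offset of 2 in place of 0.5 moved the replicate ratios by at most 0.10 (the MuDR entry of Rehavkus-1_DY). No called direction turned in any of these alternatives.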
